A study of Mus musculus with 27 samples.

Results

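The genes described here are 10 components of the transforming growth factor (TGF)-β signalling chain that act downstream of the receptors or restrain them, among 24892 gene symbols measured in NMuMG cells. They were chosen by name, with earlier results of these data known. They comprise the Smads Smad2, Smad3, Smad4, Smad6 and Smad7, the co-repressors Ski and Skil, the ubiquitin ligase Smurf1, and the membrane proteins Bambi and Pmepa1. All 10 have a row in both expression tables, 9 of them reached the expression level needed for testing, and Bambi did not.

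NMuMG cells, a non-tumour epithelial line from mouse mammary gland, undergo epithelial-to-mesenchymal transition (EMT) when given TGF-β. Parental cells were left untreated (0 h) or received TGF-β for 8 or 24 h, at 1 to 5 ng/ml by the sample labels, and RNA was sequenced from 2 biological replicates per time point. Cells infected with an irrelevant shRNA (shCT, called control cells below) and cells infected with an shRNA against lamin B1 (shLB, called KD cells) went through the same 3 time points with 2 replicates each. Lamin B1 ChIP and ATAC, which marks open chromatin, gave 1 library per time point from cells without shRNA, so their peaks have no replicate error. Each ChIP library was a mix of parallel ChIPs on chromatin sheared to favour its accessible part, which limits what those peaks can say about condensed chromatin. RNA levels are FPKM, read counts scaled to transcript length and library size, so levels of different genes can be set side by side. The 2 expression tables were normalized separately, and levels are compared within a table only.

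Of 6 epithelial markers 4 reached 1 FPKM in at least 1 library of each table, and their summed level was 3862 to 4737 FPKM in parental libraries and 4849 to 6947 FPKM in shRNA libraries, nearly all of it from the keratins Krt8 and Krt18 (2027 and 1748 FPKM in untreated parental cells). Cdh1, the epithelial cadherin, fell from 116 FPKM untreated to 40.3 FPKM at 24 h in parental cells, Epcam was at 0.351, 1.04 and 0.175 FPKM at 0, 8 and 24 h, and Esrp1 and Cldn7 stayed at or under 0.0435 FPKM there. The epithelial label thus rested on the keratins and Cdh1. Of 4 markers of differentiated alveolar cells, 3 were at 0 in every library. Summed fibroblast markers stayed at or under 2.73 FPKM, haematopoietic markers at or under 1.97 FPKM, endothelial markers at or under 1.51 FPKM and adipocyte markers at or under 0.0158 FPKM. Bulk RNA cannot tell fewer expressing cells from less RNA per cell, and this applies to each level below. The targeted gene, Lmnb1, measured 29.2 and 36.5 FPKM in untreated control cells against 9.01 and 9.27 FPKM in untreated KD cells, 32.8 and 32.1 against 7.79 and 8.14 FPKM at 8 h, and 18.4 and 17.9 against 4.37 and 7.52 FPKM at 24 h. All KD libraries were thus below all control libraries of their time point, with log2 differences of -1.73 ± 0.18, -1.90 ± 0.18 and -1.50 ± 0.18 (SE, limma adjusted p = 0.000573, 0.000189 and 0.000901). Replicate libraries correlated over genes with r of 0.981 to 0.990 in the parental table and 0.960 to 0.984 in the shRNA table, the lowest being the pair of KD libraries at 24 h.

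TGF-β binds a pair of receptor kinases, and the activated receptor phosphorylates Smad2 and Smad3, the receptor-regulated Smads. These join Smad4, the common partner, enter the nucleus and bind DNA at target genes. Several target genes close a negative feedback loop. Smad7 is an inhibitory Smad that competes for the receptor and recruits ubiquitin ligases such as Smurf1 to it. Ski and Skil (SnoN) are nuclear proteins that bind Smads and repress their targets. Pmepa1 (TMEPAI) sequesters receptor-regulated Smads from the receptor complex, and Bambi is a receptor look-alike without kinase activity. Smad6 is the other inhibitory Smad.

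Promoter sequences from RefSeq (GRCm38.p6, from 250 bases before to 50 bases after the start) were taken for 4 of the 10 genes, Smad3, Smad6, Ski and Smurf1. Each of the 4 windows occurs exactly once in mm9. The windows below are given on the minus strand of mm9, 5′ to 3′. Peaks over them changed with time (Smad6, and Ski, a strongly induced gene) or were present throughout (Smad3). The Smurf1 window is not printed, although its lamin B1 peaks changed with time too, covering 0, 300 and 300 bases at 0, 8 and 24 h. Capitals mark the letters GTCTAGAC, a palindrome made of a pair of Smad boxes, CAGAC, the Smad box with its flanking base, and GGCGC and GGCCG, GC-rich forms read by Smad proteins. Both strands were searched, and GGCGC and GGCCG matches may overlap.
Smad6 (chr9:63869817-63870116): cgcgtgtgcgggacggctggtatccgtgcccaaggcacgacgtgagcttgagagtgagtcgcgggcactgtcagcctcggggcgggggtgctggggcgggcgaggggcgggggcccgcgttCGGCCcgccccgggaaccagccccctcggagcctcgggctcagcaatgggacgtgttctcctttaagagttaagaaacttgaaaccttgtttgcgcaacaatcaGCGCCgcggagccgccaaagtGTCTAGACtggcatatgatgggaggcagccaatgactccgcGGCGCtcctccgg
Smad3 (chr9:63605752-63606051): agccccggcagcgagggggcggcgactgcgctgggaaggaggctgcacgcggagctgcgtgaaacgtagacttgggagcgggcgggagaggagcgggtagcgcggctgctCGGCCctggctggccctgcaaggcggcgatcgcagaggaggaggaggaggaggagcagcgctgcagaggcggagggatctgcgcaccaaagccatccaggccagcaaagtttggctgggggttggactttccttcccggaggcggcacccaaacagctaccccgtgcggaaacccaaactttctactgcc
Ski (chr4:154596595-154596894): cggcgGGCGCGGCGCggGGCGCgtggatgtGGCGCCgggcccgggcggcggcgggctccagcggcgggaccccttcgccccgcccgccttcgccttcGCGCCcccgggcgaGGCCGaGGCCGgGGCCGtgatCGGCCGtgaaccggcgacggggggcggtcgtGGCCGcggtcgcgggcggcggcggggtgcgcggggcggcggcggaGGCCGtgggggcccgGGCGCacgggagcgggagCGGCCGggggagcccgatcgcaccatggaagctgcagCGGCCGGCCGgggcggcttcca

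The Smad6 window holds the palindrome, which occurs in 0.213% of all 32851 RefSeq promoters of this length, together with 2 matches to GGCGC and 1 to GGCCG. The Smad3 window holds 1 match to GGCCG. The Ski window has 85.3% G and C, with 7 matches to GGCGC and 13 to GGCCG. The Smurf1 window (chr5:145726650-145726949, minus strand) has 2 matches to CAGAC, 4 to GGCGC and 3 to GGCCG. Of all promoters, 49.6% hold CAGAC, 36.9% hold GGCGC and 35.2% hold GGCCG, so these short matches are common. No window was examined for Smad2, Smad4, Smad7 and Bambi, because genes on chromosome 18 were left out beforehand, or for Skil and Pmepa1. Whether the promoters of those genes, the induced Smad7 among them, hold the palindrome was therefore not tested. High G and C content is shared by the group, for the 500 bp on each side of the start had a median of 72.0% in the 10 genes, from 60.9% in Smad6 to 79.4% in Ski, against 54.7% over 22367 protein-coding genes. The observed over expected CpG ratio in the same windows had a median of 0.98 in the 10 genes and 0.55 over all genes. Neither median was computed for expressed genes only, so these values do not show that the group differs from other expressed genes.

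In untreated parental cells Pmepa1 had the highest level of the 10 genes, 38.8 FPKM ± 0.279 (SD, n = 2). It was followed by Smad3 with 26.7 ± 0.758 FPKM, Smad4 with 22.4 ± 0.383 FPKM, Smurf1 with 19.4 ± 0.255 FPKM, Ski with 15.5 ± 1.00 FPKM and Skil with 14.8 ± 0.577 FPKM. Lower levels were found for Smad2 with 7.13 ± 0.000283 FPKM, Smad6 with 5.96 ± 0.348 FPKM, Smad7 with 5.05 ± 0.196 FPKM and Bambi with 0.165 ± 0.052 FPKM. Only Ski and Skil, neighbours in this order, had overlapping replicates. After TGF-β, Ski and Skil stood above Smad4 and Smurf1 in all groups, and Smad7 stood above Smad2 and Smad6.

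**Figure D1:**
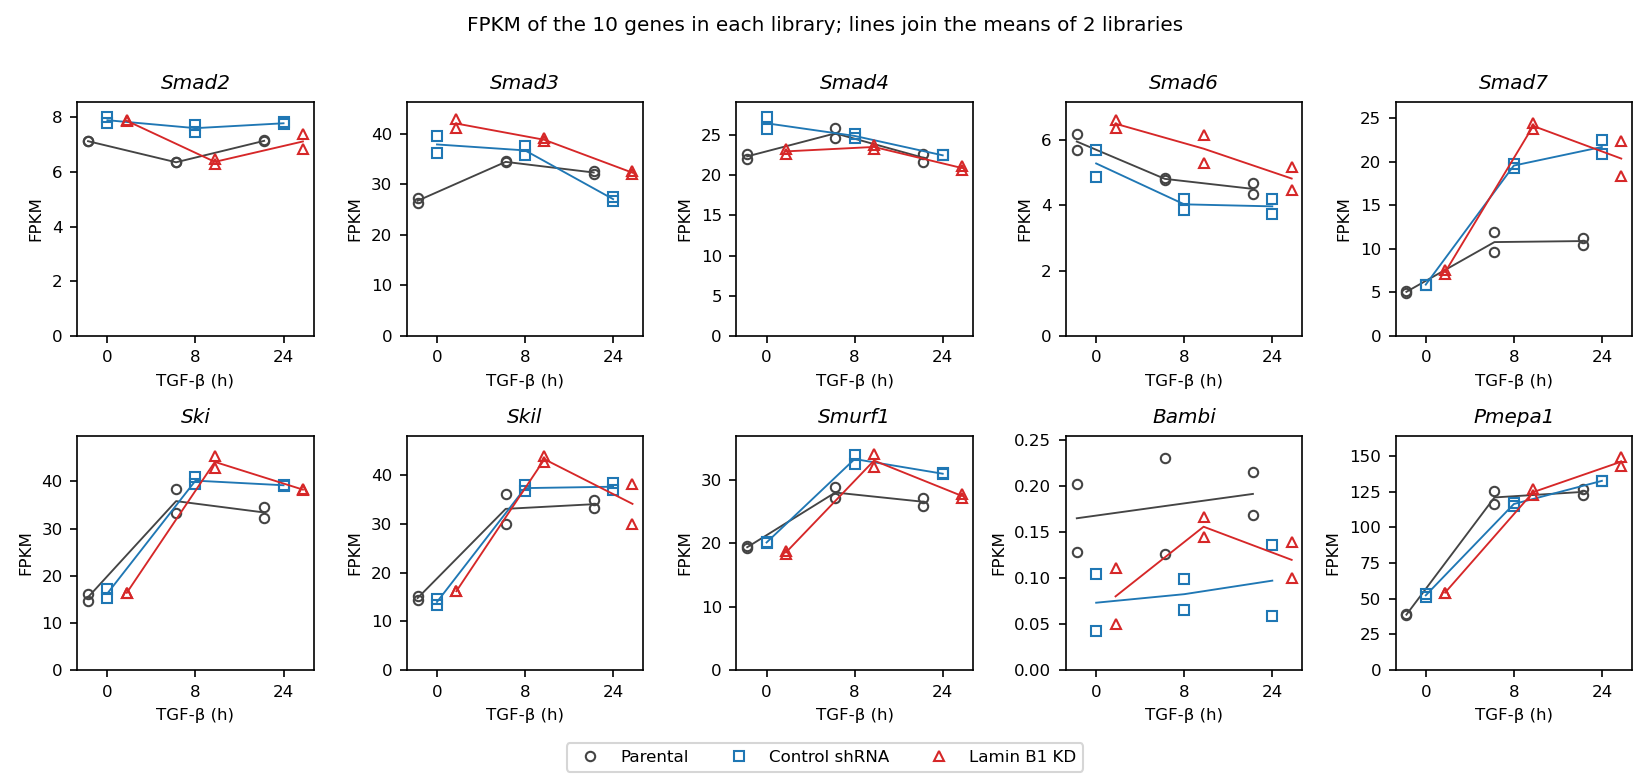
FPKM (vertical axis, from 0) of each of the 10 genes against time with TGF-β (0, 8 and 24 h), with 1 symbol per library for parental, control shRNA and lamin B1 KD cells and lines through the means of 2 libraries. Pmepa1, Ski, Skil, Smad7 and Smurf1 lie higher in every treated library than in every untreated library of the same cells, while Bambi stays under 0.24 FPKM throughout.

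TGF-β raised Pmepa1, Ski, Skil, Smad7 and Smurf1 in each kind of cell. In parental cells 9 of the 9 tested genes differed between 8 h and untreated cells, 7 higher and 2 lower, where 54.5% of all 11309 genes tested did so, 22.4% higher and 32.1% lower (called at a Benjamini-Hochberg adjusted p under 0.05 from limma on log2 of FPKM plus 1). A rise of at least 1 on the log2 scale was reached by 3 of the 9 genes at 8 h and by 3 at 24 h, against 2.02% and 5.28% of all genes. At 24 h 7 genes differed, 6 higher and 1 lower, against 70.5% of all genes, 33.4% higher and 37.1% lower. The median log2 difference of the 9 genes was 0.51 at 8 h and 0.43 at 24 h, against -0.05 and -0.02 over all genes tested. Between 24 h and 8 h 2 of the 9 genes were called, Smad2 and Smad4, where 51.8% of all genes were.

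Pmepa1 (chr2:173049959-173102034, minus strand) showed the largest response of the 10 genes in parental cells. Its level was 39.0 and 38.6 FPKM untreated, 125 and 117 FPKM at 8 h, then 127 and 123 FPKM at 24 h. The treated libraries were all above the untreated ones and the times of treatment overlapped. The rise was 3.12-fold at 8 h, a log2 difference of 1.61 ± 0.046 (SE, limma adjusted p = 1.08e-05), and 3.22-fold at 24 h (1.66 ± 0.046, adjusted p = 6.18e-07). Control cells went from 53.6 and 51.2 FPKM to 115 and 117 FPKM at 8 h and to 133 and 133 FPKM at 24 h, a rise of 2.53-fold at 24 h with a log2 difference of 1.32 ± 0.038 (limma adjusted p = 1.2e-08).

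Ski and Skil rose side by side. Ski (chr4:154528184-154596701, minus strand) measured 14.7 and 16.2 FPKM in untreated parental cells, 38.3 and 33.4 FPKM at 8 h, then 34.7 and 32.2 FPKM at 24 h. Skil (chr3:30993980-31021499, plus strand) measured 14.4 and 15.2 FPKM untreated, 36.2 and 30.0 FPKM at 8 h, then 34.8 and 33.3 FPKM at 24 h. For both genes every treated library lay above every untreated one, and 8 h and 24 h overlapped. At 8 h the rise was 2.32-fold for Ski, a log2 difference of 1.16 ± 0.078 (limma adjusted p = 6.2e-05), and 2.24-fold for Skil, 1.11 ± 0.084 (adjusted p = 9.17e-05). The ratio of Skil to Ski within a library stayed between 0.90 and 1.04 in all parental libraries. In the shRNA table the ratio ran from 0.78 to 1.00, with the lowest value in KD replicate 2 at 24 h. In control cells Ski went from 17.3 and 15.3 FPKM to 40.9 and 39.4 FPKM at 8 h, then 39.1 and 39.3 FPKM at 24 h. Skil in the same cells went from 14.5 and 13.4 FPKM to 38.0 and 36.8 FPKM at 8 h, then 36.9 and 38.4 FPKM at 24 h.

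The 2 inhibitory Smads moved in opposite directions. Smad7 (chr18:75527183-75555589, plus strand) rose from 4.92 and 5.19 FPKM in untreated parental cells to 11.9 and 9.64 FPKM at 8 h, then 11.3 and 10.5 FPKM at 24 h. The 8 h rise was 2.13-fold, a log2 difference of 0.95 ± 0.093 (limma adjusted p = 0.000231). In control cells Smad7 went from 5.88 and 5.88 FPKM to 19.3 and 19.8 FPKM at 8 h and to 22.4 and 20.9 FPKM at 24 h, a 3.68-fold rise at 24 h (1.72 ± 0.079, limma adjusted p = 1.64e-07). Smad6 (chr9:63800953-63869866, minus strand) fell from 6.20 and 5.71 FPKM in untreated parental cells to 4.84 and 4.78 FPKM at 8 h and to 4.67 and 4.34 FPKM at 24 h, with no overlap between treated and untreated libraries. The log2 difference was -0.26 ± 0.063 at 8 h (limma adjusted p = 0.0121) and -0.34 ± 0.063 at 24 h (adjusted p = 0.00241), and the 8 h call was lost without one of the untreated libraries (adjusted p = 0.0727). In control cells Smad6 was 5.71 and 4.86 FPKM untreated, 3.86 and 4.21 FPKM at 8 h, then 4.20 and 3.74 FPKM at 24 h. Those falls of 0.32 and 0.34 passed the test (limma adjusted p = 0.0172 and 0.0117) but not after quantile normalization of the libraries, where they were -0.13 and -0.18 (adjusted p = 0.242 and 0.106). Without untreated control replicate 1 they were also lost (limma adjusted p = 0.113 and 0.0815), as was the 8 h fall without replicate 1 at 8 h (0.0995) and the 24 h fall without replicate 2 at 24 h (0.0823).

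The level of Smad7 relative to Smad6 therefore shifted within each library. In parental cells the ratio of Smad7 to Smad6 was 0.793 and 0.910 untreated, 2.45 and 2.02 at 8 h and 2.41 and 2.42 at 24 h. In control cells it was 1.03 and 1.21 untreated, 5.00 and 4.70 at 8 h and 5.35 and 5.59 at 24 h. In KD cells it was 1.13 and 1.11 untreated, 4.59 and 3.86 at 8 h and 4.32 and 4.10 at 24 h. Smad6 was the more abundant of the pair only in untreated parental libraries, and a ratio within a library does not depend on the scaling of that library.

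**Figure D2:**
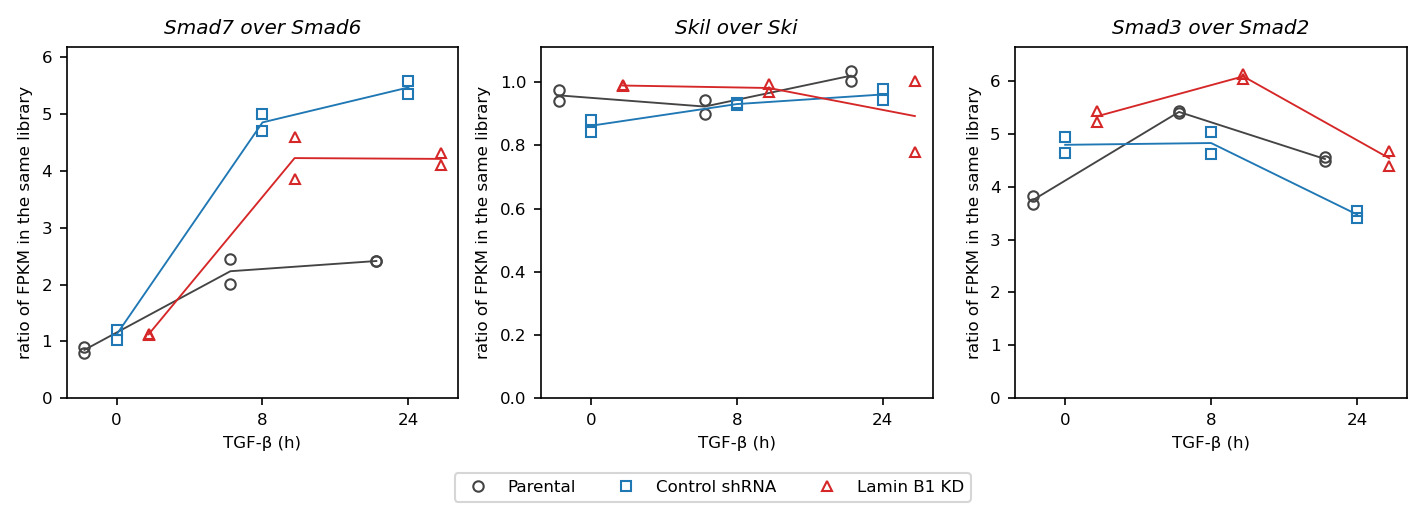
Ratio of FPKM within the same library (vertical axis, from 0) against time with TGF-β for Smad7 over Smad6, Skil over Ski and Smad3 over Smad2, with 1 symbol per library and lines through the means. Smad7 over Smad6 goes from 0.793 to 1.21 in untreated libraries to 2.02 to 5.59 in treated ones, whereas Skil over Ski stays between 0.78 and 1.04.

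Smurf1 (chr5:145637364-145726716, minus strand) rose less than the genes above. It went from 19.2 and 19.5 FPKM in untreated parental cells to 28.9 and 27.1 FPKM at 8 h, then 27.2 and 25.9 FPKM at 24 h, with no overlap between treated and untreated libraries. The log2 difference was 0.51 ± 0.049 at 8 h (limma adjusted p = 0.000213) and 0.43 ± 0.049 at 24 h (adjusted p = 0.000178). In control cells it went from 20.2 and 19.98 FPKM to 34.0 and 32.5 FPKM at 8 h, then 30.8 and 31.0 FPKM at 24 h. Bambi (chr18:3507955-3516402, plus strand) was barely detected. Its parental libraries measured 0.202 and 0.128 FPKM untreated, 0.231 and 0.126 FPKM at 8 h, then 0.168 and 0.215 FPKM at 24 h, and the groups overlapped. In the shRNA table it lay between 0.0421 FPKM, in an untreated control library, and 0.166 FPKM, in a KD library at 8 h.

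The receptor-regulated and common Smads changed less than 1.5-fold in each comparison with untreated cells. Smad3 (chr9:63494574-63605801, minus strand) rose in parental cells from 26.2 and 27.3 FPKM to 34.5 and 34.3 FPKM at 8 h, then 32.6 and 32.0 FPKM at 24 h. These are log2 differences of 0.35 ± 0.040 and 0.26 ± 0.040 (limma adjusted p = 0.00043 and 0.00083). In control cells Smad3 measured 39.6 and 36.1 FPKM untreated and 37.6 and 35.8 FPKM at 8 h, which overlapped, and 26.6 and 27.4 FPKM at 24 h. That fall of 0.47 ± 0.050 at 24 h (limma adjusted p = 3.24e-05) was 0.34 after quantile normalization. Untreated control cells thus began at a higher FPKM than parental cells in their own table, a difference that was not tested because the tables were normalized separately.

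Smad4 (chr18:73798663-73863434, minus strand) measured 22.6 and 22.1 FPKM in untreated parental cells, 25.8 and 24.6 FPKM at 8 h, then 22.7 and 21.7 FPKM at 24 h. The 8 h libraries were above the others, a log2 difference of 0.17 ± 0.046 (limma adjusted p = 0.0202) that was lost without either untreated library or without 1 of the 8 h libraries (adjusted p = 0.0553 to 0.0903). In control cells Smad4 was 27.2 and 25.8 FPKM untreated, 24.7 and 25.1 FPKM at 8 h, then 22.5 and 22.5 FPKM at 24 h. The fall of 0.23 ± 0.040 at 24 h (limma adjusted p = 0.000779) became 0.09 after quantile normalization (adjusted p = 0.0564).

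Smad2 (chr18:76401234-76465385, plus strand) was 7.13 and 7.13 FPKM in untreated parental cells, 6.36 and 6.36 FPKM at 8 h, then 7.16 and 7.12 FPKM at 24 h. The dip at 8 h, -0.14 ± 0.049 on the log2 scale (limma adjusted p = 0.0407), was lost in 7 of 9 alternative analyses. Smad3 had several times the FPKM of Smad2 in every library. The ratio of Smad3 to Smad2 was between 3.67 and 5.43 in parental libraries and between 3.41 and 6.13 in shRNA libraries.

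**Figure D3:**
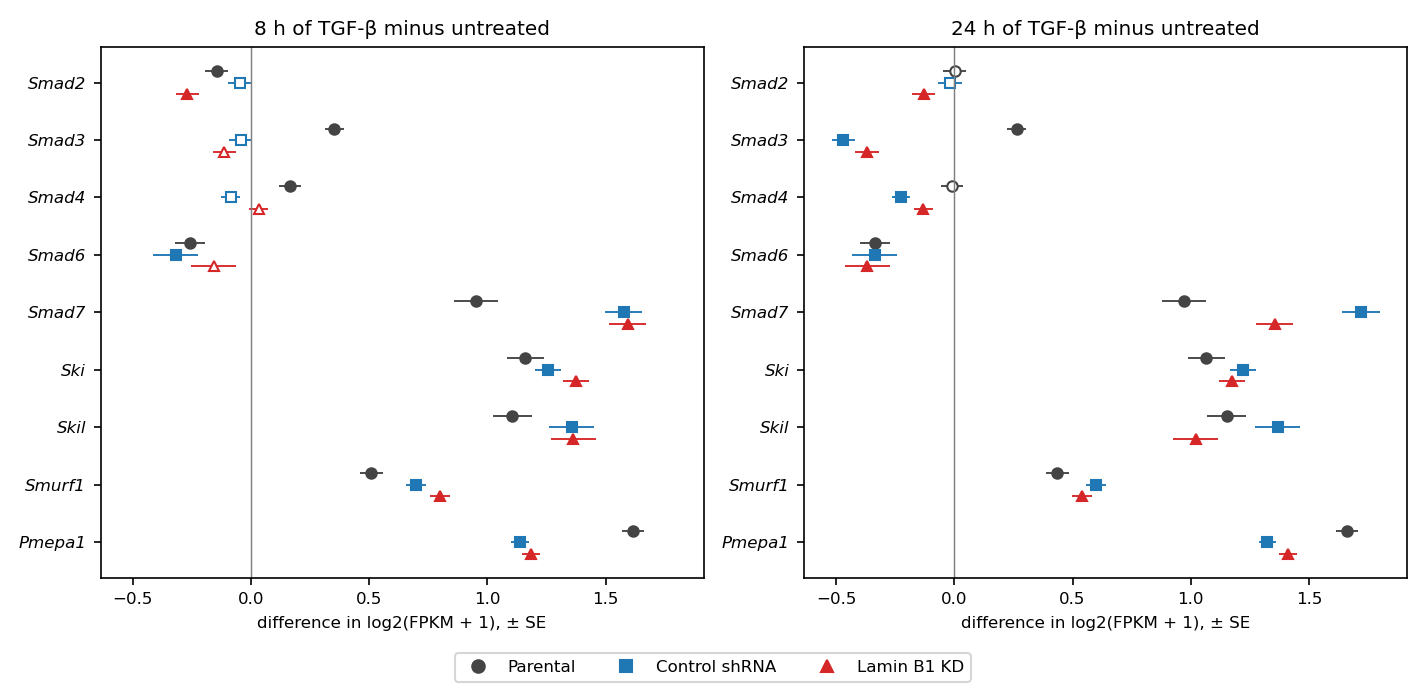
Difference in log2(FPKM + 1) between cells with TGF-β for 8 h (left) or 24 h (right) and untreated cells of the same kind, with SE from the fit over all libraries of a table, for the 9 tested genes; filled symbols passed an adjusted p of 0.05. Pmepa1, Ski, Skil, Smad7 and Smurf1 lie right of 0 in all cells; Smad3 at 24 h is right of 0 in parental cells and left of 0 in control and KD cells, and at 24 h the Smad2 values of control and KD cells (-0.02 and -0.13) change sign to 0.13 and 0.01 under quantile normalization.

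In control cells at 8 h 6 of the 9 genes differed, 5 higher and 1 lower, where 64.3% of all 11450 genes tested did (19.4% higher, 44.9% lower). At 24 h 8 differed in these cells, 5 higher and 3 lower, where 70.7% of all genes did (25.5% higher, 45.1% lower). KD cells gave 5 higher and 1 lower gene at 8 h, where 67.8% of all genes differed (23% higher, 44.8% lower), and 5 higher and 4 lower at 24 h, where 71.9% did (28.6% higher, 43.3% lower). Pmepa1, Ski, Skil, Smad7 and Smurf1 were the 5 higher genes in each of these comparisons, and 4 of them had log2 differences of at least 1, which 3.83%, 5.95%, 4.79% and 6.4% of all genes had in the same order. The median of all genes tested was -0.14 at 8 h and -0.13 at 24 h in control cells and -0.13 and -0.10 in KD cells, and quantile normalization moved these medians to -0.02, 0.00, -0.03 and 0.00. Calls over all genes split accordingly into 2223 higher and 5137 lower at 8 h in control cells, or 3082 and 3624 under quantile normalization, and 2924 and 5169 at 24 h, or 3900 and 3901. In KD cells the split was 2629 and 5132 at 8 h, or 3432 and 4036, and 3277 and 4959 at 24 h, or 4126 and 4103. Under that normalization the 5 rising genes kept log2 differences of 0.72 to 1.89 in control cells and 0.63 to 1.72 in KD cells. Of the values that did not pass the test, those of Smad2, Smad3 and Smad4 at 8 h in control cells (-0.05, -0.04 and -0.08) became 0.11, 0.06 and 0.04, and that of Smad6 at 8 h in KD cells (-0.16) became 0.01.

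Pmepa1, Ski, Skil, Smad7 and Smurf1 rose in KD cells too, and the levels reached were compared with control cells at each time point. Smad7 was 7.52 and 7.11 FPKM in untreated KD cells, 24.4 and 23.8 FPKM at 8 h, then 22.3 and 18.4 FPKM at 24 h. Its KD libraries were above the control libraries in untreated cells and at 8 h and overlapped them at 24 h. Ski in KD cells was 16.5 and 16.3 FPKM untreated, 45.3 and 43.0 FPKM at 8 h, then 38.1 and 38.4 FPKM at 24 h, and Skil was 16.2 and 16.2, 43.9 and 42.7, and 38.3 and 30.0 FPKM. Pmepa1 in KD cells was 54.3 and 54.4 FPKM untreated, 123 and 127 FPKM at 8 h, then 143 and 149 FPKM at 24 h. Smurf1 in KD cells was 18.2 and 18.8 FPKM untreated, 34.0 and 32.0 FPKM at 8 h, then 27.7 and 27.2 FPKM at 24 h. Each of these 5 genes was higher in every treated KD library than in both untreated ones. The genes that fell in KD cells were Smad2 at 8 h (-0.27) and Smad3 (-0.37), Smad6 (-0.37), Smad4 (-0.13) and Smad2 (-0.13) at 24 h, and under quantile normalization only the fall of Smad3 (-0.29) still passed the test.

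Against control cells the differences of KD cells were small, none reaching 2-fold. In untreated cells 2 of the 9 genes differed, against 19.7% of all genes. Smad7 was 1.24-fold higher (0.27 ± 0.079, limma adjusted p = 0.0429) and Smad4 lower, at 23.3 and 22.7 FPKM against 27.2 and 25.8 FPKM (-0.20 ± 0.040, adjusted p = 0.0112). At 8 h 3 genes differed, against 35.8% of all genes. Smad6 was 1.42-fold higher in KD cells, 5.31 and 6.16 FPKM against 3.86 and 4.21 FPKM (0.42 ± 0.096, limma adjusted p = 0.0101). Smad7 was 1.23-fold higher (0.29 ± 0.079, limma adjusted p = 0.0214), and Smad2 was lower, 6.46 and 6.28 FPKM against 7.48 and 7.73 FPKM (-0.22 ± 0.049, adjusted p = 0.00841). At 24 h 3 genes differed, against 28.3% of all genes. Smad3 was 1.19-fold higher in KD cells, 32.0 and 32.6 FPKM against 26.6 and 27.4 FPKM (0.25 ± 0.050, limma adjusted p = 0.00819). Pmepa1 was 1.10-fold higher (0.14 ± 0.038, limma adjusted p = 0.0265) and Smurf1 lower (-0.17 ± 0.042, adjusted p = 0.0196).

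These shares of 2 or 3 in 9 are near the background in each comparison. The background itself depended on single libraries, since 2254 genes were called in untreated cells but 689 or 738 without KD replicate 1 or 2, 4104 at 8 h but 2330 to 2440 without any 1 of the 4 libraries, and 3241 at 24 h but 1205 or 1433 without control replicate 1 or 2. Cdh1 also differed between KD and control cells, at 83.6 against 51.9 FPKM at 8 h and 53.4 against 27.2 FPKM at 24 h (limma adjusted p = 0.00173 and 0.000656), and the part of such a shift in the differences above was not tested. None of the 8 calls held in all 10 alternative analyses of its comparison, and none changed direction. The untreated call of Smad4 was lost without either KD library (limma adjusted p = 0.0589 and 0.0858), and that of Smad7 without any 1 of the 4 libraries (0.0967 to 0.211). At 8 h the call of Smad7 was lost without any 1 of the 4 libraries (limma adjusted p = 0.0739 to 0.103), that of Smad6 without control replicate 1 (0.0708) or KD replicate 2 (0.0766), and that of Smad2 without replicate 2 of either (0.0616 and 0.0592). At 24 h the call of Smad3 was lost without control replicate 1 (limma adjusted p = 0.0664), and those of Smurf1 and Pmepa1 without either control library or KD replicate 2 (0.0517 to 0.123), that of Pmepa1 also with quantile normalization (0.292). Smad6 measured 6.63 and 6.37 FPKM in untreated KD cells and 5.16 and 4.48 FPKM at 24 h, so its KD libraries lay above the control libraries of the same time at all 3 times, although the difference passed the test only at 8 h. Smad3 KD libraries, 42.9 and 41.1 FPKM untreated and 39.0 and 38.5 FPKM at 8 h, also lay above their controls at all 3 times, and the difference passed the test at 24 h. Smad4 KD libraries, 23.3 and 23.7 FPKM at 8 h, then 20.6 and 21.2 FPKM at 24 h, lay below their controls at all 3 times. The share of all genes separated in this way at all 3 times was not counted, so these separations of Smad6, Smad3 and Smad4 are description only.

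**Figure D4:**
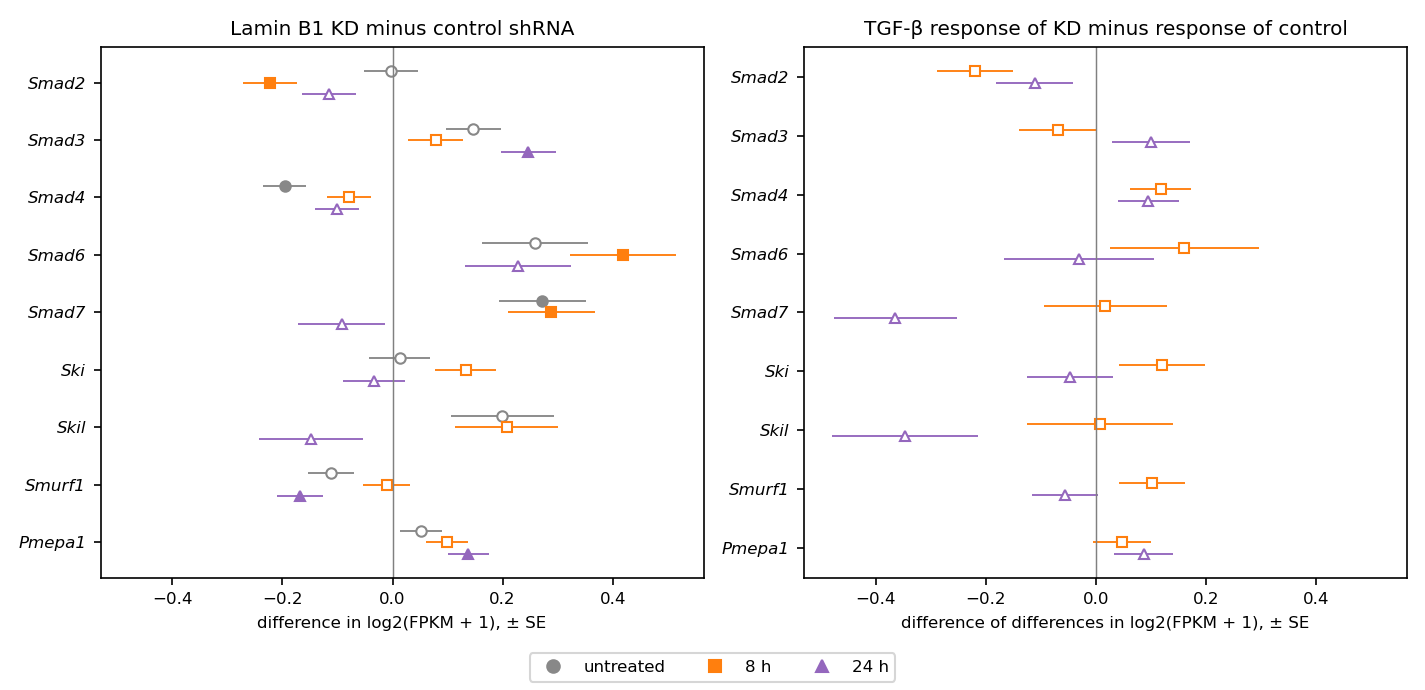
Left, difference in log2(FPKM + 1) between KD and control cells, for each time point; right, the response of KD cells to TGF-β minus that of control cells; bars are SE and filled symbols passed an adjusted p of 0.05. Differences stay between -0.36 and 0.42 on the log2 scale, and no symbol on the right is filled.

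Whether the response to TGF-β itself differed between KD and control cells was tested as a difference of differences. None of the 9 genes was called by limma at 8 h or 24 h, against 4.06% and 4.72% of all genes, and 1 and 2 of them had an unadjusted p under 0.05, against 21.2% and 23.7% of all genes. Over all genes, calls for the difference in response at 24 h split into 313 higher and 227 lower, or 246 and 267 under quantile normalization. The gene at 8 h was Smad2, with -0.22 ± 0.069 (limma adjusted p = 0.118). At 24 h they were Smad7, whose log2 response was 1.72 in control cells and 1.35 in KD cells, a difference of -0.36 ± 0.11 (limma adjusted p = 0.10), and Skil, 1.37 and 1.02, a difference of -0.35 ± 0.13 (adjusted p = 0.16). The KD replicates at 24 h were unequal for both genes, 22.3 and 18.4 FPKM for Smad7 and 38.3 and 30.0 FPKM for Skil. Without KD replicate 1 at 24 h the differences were -0.50 (limma adjusted p = 0.00328) and -0.52 (adjusted p = 0.00253), and the count over all genes went from 540 to 2709. That count was 1417 without untreated control replicate 2 and 87 to 120 without either untreated KD library or either control library at 24 h, and the 8 h count of 465 was 1485 without untreated control replicate 2 and 29 to 57 without either untreated KD library or any 1 of the 4 libraries at 8 h. Without KD replicate 2 at 24 h they were -0.23 and -0.18 and did not pass. In each case the lone remaining library was assumed to vary like the other groups.

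The rest of the pathway moved in the same cells as follows. The lists too were chosen with earlier results of these data known. All counts in these lists stand beside the shares over all genes given above, at 24 h in parental cells 33.4% higher and 37.1% lower. Of 14 tested ligands and latency proteins, 10 were higher and 2 lower at 8 h in parental cells and 12 higher and 1 lower at 24 h. The largest log2(FPKM + 1) differences at 24 h were those of Thbs1, which can activate latent TGF-β, from 13.8 to 207 FPKM (15.0-fold), Inhba, the activin A subunit, from 11.1 to 122 FPKM, and the latent TGF-β binding proteins Ltbp2, 7.94-fold, and Ltbp1, 3.10-fold. Of 8 receptors, 4 were higher and 1 lower at 24 h, among them Acvr1 (2.80-fold), Bmpr2 (1.94-fold) and the type II TGF-β receptor Tgfbr2 (1.44-fold), with Acvr2a lower (0.672-fold). The BMP Smads Smad1 and Smad5 rose 1.48-fold and 1.44-fold. Of 15 further inhibitors and ubiquitin ligases, 6 were higher and 5 lower at 24 h, shares near those over all genes. Ldlrad4, a relative of Pmepa1, rose 5.59-fold, the co-repressor Tgif1 1.70-fold and the ligase Smurf2 1.57-fold, whereas the ligase Nedd4l fell to 0.502-fold. Of 9 Smad adaptors and cofactors, 4 were higher, led by Runx1 (3.25-fold) and Atf3 (2.45-fold), and 2 lower. Of 27 classical target genes, 22 were higher and 3 lower, with Fn1 at 8.42-fold and Ctgf going from 26.9 to 188 FPKM, and Id2, known to be repressed by TGF-β in epithelial cells, at 0.147-fold. At 8 h the counts of higher and lower genes were 3 and 2 for receptors, 2 and 0 for BMP Smads, 5 and 4 for further inhibitors, 4 and 1 for adaptors and 19 and 5 for classical targets.

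The median log2 differences at 24 h in parental cells were 0.96 for ligands, 0.21 for receptors, 0.51 for BMP Smads, 0.06 for further inhibitors, 0.19 for adaptors and 1.23 for classical targets, beside 0.43 for the 9 genes and -0.02 for all genes tested. Between KD and control cells at 8 h, where 19.3% of all genes were higher and 16.5% lower, 6 of 15 ligands were higher and 1 lower, 3 of 8 receptors higher, 1 of 2 BMP Smads lower, 2 of 15 further inhibitors higher and 2 lower, 1 of 9 adaptors higher and 2 lower, and 8 of 26 classical targets higher and 4 lower. Fst, an activin antagonist, was 3.19-fold higher in KD cells (2.89 to 9.21 FPKM), the integrin subunit Itgb6 1.70-fold, the ligand Bmp4 1.79-fold, the receptors Tgfbr1 and Tgfbr2 1.49-fold and 1.41-fold, and Axin2, a Wnt pathway inhibitor, 2.66-fold from a level under 1 FPKM. Among classical targets Ctgf was 1.66-fold higher and Acta2, a smooth muscle actin, went from 0.160 to 0.818 FPKM. Tgif1 was lower (0.657-fold). Lmnb2, another B-type lamin, was lower in KD cells at 8 h too (0.603-fold). With TGF-β Lmnb1 fell to 0.506-fold in parental cells at 24 h, Lmnb2 to 0.735-fold and Lmna to 0.803-fold.

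Genes with the most similar pattern were sought among 10842 genes by Pearson correlation over 18 libraries, on log2 levels relative to the untreated parental or control cells of each table, and no test was made. For Smad7 they included Vegfa (r = 0.993) and Rap1gap2 (r = 0.991). For Skil they were Plekhg3 (r = 0.995), Zbtb38 (r = 0.994) and E030011O05Rik (r = 0.992), and for Pmepa1 they were Lrrk1 (r = 0.984), Tmod3 (r = 0.977) and Phldb3 (r = 0.976). Smad3 had no partner as close, with Tacc2 (r = 0.922), Golph3l (r = 0.889) and Ets1 (r = 0.88) on top. Among the 10 genes themselves Ski and Skil were closest (r = 0.986), followed by Ski and Smurf1 (r = 0.971) and Skil and Smad7 (r = 0.964), while Smad3 and Smad4 correlated with r = 0.703. Among the 10842 genes Skil was at rank 16 and Smurf1 at rank 65 for Ski. Smad7 was at rank 75 for Skil and Smad4 at rank 215 for Smad3, so other genes were closer in each case.

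Lamin B1 peaks were then placed at the 10 loci, each taken from 2500 bp upstream of the transcription start site (TSS) to the 3′ end. A lamin B1 peak lay at 4 of the 10 loci in untreated cells, at 7 after 8 h and at 9 after 24 h. Over all 22367 protein-coding genes the shares were 19.3%, 37.6% and 28.7%, and over the 10538 of them expressed in parental cells 33.8%, 56.9% and 44.4%. Within 500 bp of the TSS the numbers were 3, 7 and 8, against 27.1%, 46.7% and 37.7% of expressed genes. The lists held 4645, 10484 and 7083 peaks, and cutting each to the 4645 highest scores left 4, 6 and 9 loci. The shares over all genes under that cut were not computed, and those above belong to the full lists. The score given by MACS, the peak caller, was at least 50 in every list, with medians of 69.8, 79.4 and 83.3.

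Pmepa1, Smad3 and Smad6 had a lamin B1 peak over the TSS already in untreated cells. At Pmepa1 the peak over the TSS scored 63.6 in untreated cells (chr2:173101900-173102940), 312 at 8 h and 226 at 24 h. At Smad3 the scores of the TSS peak were 66.4, 157 and 229 in the order of time, and the whole promoter window printed above lay inside it each time. At Smad6 the untreated peak over the TSS (chr9:63869094-63870342) scored 93.6, and the 8 h peak (chr9:63867760-63870301) scored 359, at or above 99.3% of the peaks of its list. At 24 h the nearest Smad6 peak (chr9:63867871-63869300, score 188) began 566 bp inside the gene from the TSS, so that the printed window was covered over 300 bases at 0 h and 8 h and over 0 bases at 24 h.

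Smad7, Skil, Ski and Smurf1 had lamin B1 peaks within 500 bp of the TSS after TGF-β and none there in untreated cells, in lists of unequal length. Cutting the lists to equal length kept scores of at least 84.8 at 8 h and 69.1 at 24 h, so that the 8 h peaks of Ski and Skil beside the TSS, the 8 h peak of Smad7 over the TSS and the 24 h peak of Ski over the TSS were no longer listed. Smad7 had none at its locus in untreated cells, the nearest being 23.7 kb away, 3 at 8 h and 2 at 24 h, of which those over the TSS scored 68.4 and 89.4. Skil had none in untreated cells, 1 at 8 h beginning 149 bp from the TSS (score 56.4) and 2 at 24 h, with 145 over the TSS. At Ski 2 peaks were present at 8 h and 2 at 24 h, 1 of each beside or over the TSS with scores of 68.7 and 56.5. Smurf1 had a single untreated peak near its 3′ end with a score of 50.6, close to the lowest score in the list, and peaks over the TSS at 8 h (104.5) and 24 h (96.6). Smad4 and Bambi had a peak at their locus only at 24 h, over the TSS in both, with scores of 71.9 and 155. Smad2 had none at any time, its nearest lamin B1 peaks lying 181.4, 137.1 and 420.4 kb from the TSS.

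**Figure D5:**
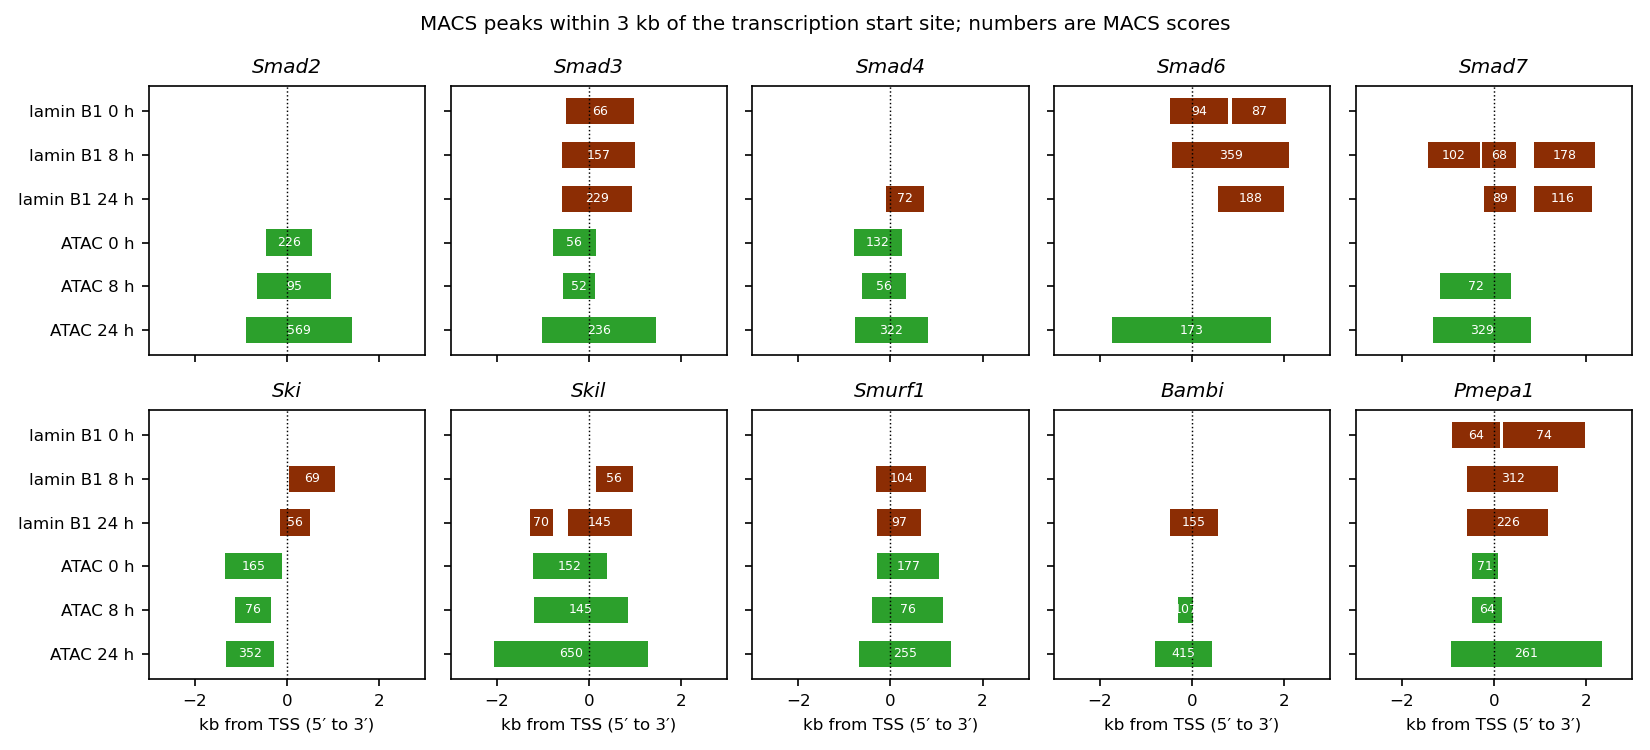
Lamin B1 and ATAC peaks within 3 kb of the TSS (dotted line) of each gene, drawn to scale in kb along the direction of transcription, with 1 row per assay and time point and the MACS score inside each bar; there are no replicates. Smad3 and Pmepa1 have a lamin B1 peak over the TSS in all 3 rows, Smad2 has none, and at Smad6 the single ATAC peak is that of 24 h.

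ATAC peaks lay at 8 of the 10 loci in untreated cells, at 9 after 8 h and at all 10 after 24 h, where 35.9%, 31.8% and 58% of all protein-coding genes and 64.8%, 56.2% and 93.2% of the expressed ones had one. The lists held 9782, 10340 and 33811 peaks. Cut to the 9782 highest scores, which at 24 h kept peaks of 259 and above, they left 8, 9 and 8 loci, and the 2 lost at 24 h were Smad3 and Smad6. Here too the shares over all genes under the cut were not computed. Smad2 had an ATAC peak over the TSS at each time, with scores of 226, 94.9 and 569, although it had no lamin B1 peak, and Smad4 (132, 55.7 and 322), Skil (152, 145 and 650), Smurf1 (177, 75.9 and 255) and Pmepa1 (70.7, 64.5 and 261) also had one throughout. Scores in the 24 h list ran higher, with a median of 155 against 93.1 untreated and 73.9 at 8 h.

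Smad6 was without an ATAC peak at its locus in untreated cells and at 8 h, when its nearest one was 27.5 and 27.6 kb from the TSS, and had 1 over the TSS at 24 h (chr9:63868148-63871614, score 173). Smad6 RNA was at 6.20 and 5.71 FPKM in the first of these states and at 4.67 and 4.34 FPKM in the last. At Smad7 the untreated ATAC peak lay over an exon inside the gene (chr18:75535009-75535827, score 77.1), and peaks over the TSS were listed at 8 h (72.3) and 24 h (329). At Ski the ATAC peaks lay upstream of the TSS at all 3 times (165, 75.8 and 352), and the nearest edge was 116, 347 and 283 bp away, so that the printed window was covered over 78 bases in untreated cells and over 0 bases later. Bambi, with at most 0.231 FPKM, had an ATAC peak over the TSS at 8 h (107) and 24 h (415) and none within 170.0 kb of the TSS in untreated cells. Smad3 had 1 ATAC peak at 0 h and at 8 h and 9 at 24 h, of which 8 lay in introns. How much of the change in peaks reflects the different lengths of the lists was not tested beyond the lists of equal length, and the depth behind the lists is unknown.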

How the data were processed

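RNA was sequenced in 18 libraries of NMuMG cells, and lamin B1 ChIP and ATAC libraries were made once per time point. The 3 Hi-C samples were not analysed here. The authors deposited FPKM values per gene, and the sample labels name TopHat, Bowtie and Cufflinks with the mm9 genome, without versions. The tables have no header line. Columns of the parental table could be tied to a time point but not to a replicate, and columns of the shRNA table were tied to samples by the order of names in the table's own name. The authors deposited ChIP and ATAC peaks as MACS intervals with a score per peak, called per library. Read depth is not given with FPKM values, so no counting interval was made. From the steps between low values, relative depth was estimated at 92.9% to 116.2% of the first library in the table for parental libraries and 79% to 112.3% for shRNA libraries.

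Values were transformed to log2(FPKM + 1), genes reaching 1 FPKM in 2 or more libraries were kept (11309 of 23295 parental and 11450 of 24247 shRNA genes), and limma 3.58.1 (R 4.3.3) with a mean-variance trend was fitted to all libraries of a table, with Benjamini-Hochberg adjustment over all genes tested. Fold changes given as such are ratios of mean FPKM, and log2 differences understate the change of low genes. The script was tested on simulated data. A peak was assigned to a locus by an overlap of at least 1 bp, from 2500 bp upstream of the start to the 3′ end, or to within 500 bp of the start, in the GENCODE annotation of mm9. Peaks, sequences and figures were handled with pandas 2.3.3, numpy 2.4.6 and matplotlib 3.10.9 in Python 3.11.15. Alternatives were a pseudocount of 0.1, no filter on low values, quantile normalization, a fit of the compared groups only, a fit without trend, replicate blocks and the omission of each library, and for peaks a higher score, lists of equal length and other windows around the start.

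The 10 genes and the pathway lists were chosen with earlier results of these data known. From each pathway list the up to 4 genes with the largest log2 change among those called without overlap of replicates were named, for parental cells at 24 h and for KD against control cells at 8 h, and for Smad3, Smad7, Skil and Pmepa1 the 3 genes with the highest correlation. One gene that this rule names is not reported here.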

Additional observations from a re-analysis of the deposited data

Results flagged for a closer look

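The response of Smad3 to TGF-β at 24 h had opposite directions in parental cells and in shRNA-infected cells. At 8 h the ratio to untreated cells was 1.29 in parental cells, 0.969 in control cells and 0.923 in KD cells, and at 24 h it was 1.21, 0.714 and 0.768. The 24 h directions were the same under quantile normalization (log2 differences of 0.31, -0.34 and -0.29), whereas the 8 h value of control cells became 0.06. At 8 h Smad3 did not pass the test in control cells (limma adjusted p = 0.469) or in KD cells (0.0742). For Smad4 the 8 h ratio was 1.13 in parental cells, 0.941 in control cells and 1.02 in KD cells, and the control value also changed sign under quantile normalization (0.04). Neither the control nor the KD value of Smad4 passed the test (limma adjusted p = 0.0899 and 0.482). The parental and shRNA tables were normalized separately, so these differences between cells were not tested, and infection cannot be told apart from table.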

How the results depend on the processing

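The rises of Pmepa1, Smad7, Ski, Skil and Smurf1 over untreated cells kept direction and significance in 290 of 290 alternative analyses (30 comparisons). Over all single-gene results, 65 lost and 14 gained a call and 2 reversed. Both reversals were in Smad2 at 24 h under quantile normalization, 0.1272 in control cells (limma adjusted p = 0.0392) and 0.0092 in KD cells (adjusted p = 0.873). In parental cells at 24 h against 8 h, the 2 genes called became 1 with no filter, with quantile normalization and with only the groups compared, and 0 to 1 when a library was left out. For KD against control cells the 2 untreated calls became 1 with no filter and 0 with only the groups compared (0 to 2 without 1 library), the 3 calls at 8 h became 5 with only the groups compared (0 to 2 without 1 library), and the 3 calls at 24 h became 0 with only the groups compared (0 to 5 without 1 library, 5 being without KD replicate 1). For the difference in response at 24 h the count was 0 to 2, with 2 only without KD replicate 1. The cause was not tested. Over all genes, fitting only the groups compared called 732 genes in untreated KD against control cells (2254 otherwise), 710 at 24 h (3241 otherwise), and 714 and 88 for the difference in response at 8 h and 24 h (465 and 540 otherwise). At or above the median score of each list, the untreated loci with a lamin B1 peak numbered 2 instead of 4 and those with an ATAC peak 5 instead of 8. The treated lists lost loci as well. For lamin B1 they were Skil at 8 h, and Smad4 and Ski at 24 h. For ATAC they were Smad3, Smad4 and Smad7 at 8 h, and no locus was lost at 24 h. Shares over all genes at that score were not computed.

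Replicate numbers are shared by the shRNA groups. The main fit had no replicate block, because the methods of the paper name an unpaired test. Same-numbered libraries deviated together with r over 0.1 in 2 of 15 group pairs (range -0.135 to 0.368). The highest r was between control and KD cells at 24 h, which are compared above, and the other, 0.184, between untreated KD cells and KD cells at 24 h. With a replicate block the genes called were 6, 8, 6 and 8 for 8 h and 24 h in control and KD cells, 2, 3 and 3 for KD against control cells and 0 and 0 for the differences in response, the change being Smad2 at 24 h in KD cells (limma adjusted p = 0.052), and 284 genes in place of 465 were called over all genes for the difference at 8 h. In the parental table replicates are unnumbered, so no block was fitted there.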
